A study of Mus musculus with 18 samples.

Results

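The H3K4 methyltransferase genes, which encode the enzymes that methylate lysine 4 of histone H3 and the subunits those enzymes need, were followed through mouse germinal vesicle oocytes that carried Zfy1 or Zfy2 transgenes. The group holds 10 of the 19057 genes named on the array: the enzymes Kmt2a, Kmt2b, Kmt2c, Kmt2d, Kmt2e, Setd1a and Setd1b, and the subunits Wdr5, Cxxc1 and Ash2l. Every array probe annotated to 1 of these genes alone was taken, which gave 22 of the 45281 probes of the array, and 18 of the 22 passed the filter on detection. The genes were chosen by their role, with earlier results of these data known, and were selected on 1 measured value, the higher Kmt2a signal with Zfy2. For that reason the Kmt2a values in comparisons with a functional Zfy2 transgene are a description and carry no p-value.

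As background, these enzymes, Kmt2e aside, deposit monomethylation at enhancers and trimethylation at promoters. Kmt2e aside, each works inside a complex around a shared core that includes Wdr5 and Ash2l. Kmt2e is counted with the enzymes here for its SET domain. Kmt2a and Kmt2b belong to the menin-containing complexes, Kmt2c and Kmt2d to those with the demethylase Kdm6a, and Setd1a and Setd1b to those with Cxxc1 and Wdr82. In growing mouse oocytes, Kmt2b and Cxxc1 are known to be needed for the broad H3K4 trimethylation that builds up before transcription stops, and Setd1b for the oocyte expression program.

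Zfy1 and Zfy2 are Y-linked zinc finger genes that a female lacks, and the series asked what their expression does to the oocyte transcriptome. RNA was measured on Illumina bead arrays from 18 pools of oocytes, 3 biological replicates for each of 6 genotypes, all on the outbred MF1 albino background. The females were 4 weeks old and were sampled 45 to 48 hours after PMSG, a hormone that stimulates follicle growth, and each pool held about 100 oocytes from at least 2 females, stripped of their cumulus cells. XX females had no transgene and Zfy2_nf females a Zfy2 transgene labelled non-functional. Zfy1_lo females carried 1 copy of a Zfy1 transgene and Zfy1_hi females several. Zfy2 females carried 1 copy of Zfy2. Zfy2_Eif2s3y females carried 1 copy of Zfy2, and a multi-copy Eif2s3y transgene was present in a proportion of the cells, for which the submitters called the sample contaminated. The promoter of each transgene is not given in the sources used here. XX, Zfy2_nf, Zfy1_lo and Zfy2_Eif2s3y formed batch 1 on slides 1 and 2, and Zfy1_hi and Zfy2 formed batch 2 on slide 3.

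Each array detected 18140 to 20292 probes, replicates of a group correlated across kept probes at r = 0.967 to 0.987, and the median non-normalized signal was 89.7 to 115 in batch 1 and 68.9 to 75.1 in batch 2. All 10 oocyte markers, among them Zp3 and Gdf9, were detected on every array. The mean level of 10 granulosa and cumulus markers was 5.33 to 5.75 on XX arrays, 5.44 to 5.48 in Zfy2_nf, 5.31 to 5.55 in Zfy1_lo, 5.17 to 5.78 in Zfy2_Eif2s3y, 5.31 to 5.34 in Zfy1_hi and 5.11 to 5.16 in Zfy2 (log2 intensity). Among these 10, Cyp11a1 and Kitl were detected on all 3 arrays of every group, and Inhba and Has2 on 2 or 3 of each. Star and Ptx3 were detected on no array. No stroma or theca marker of 7 was detected on all 3 arrays of any group, although 6 of the 7 were detected on at least 1 Zfy2_Eif2s3y array. Of 5 blood and immune markers, Lyz2 was detected on all 3 arrays of Zfy1_hi and of Zfy2 and on 0 XX arrays, and Hba-a1 on none.

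Values below are normalized log2 intensities, detected means a detection p-value under 0.05, and probes of a gene are numbered from the highest mean level down. A level of one probe cannot be set against that of another. Of the 18 probes that passed, 14 were detected on all 18 arrays. The exceptions were Kmt2a probe 1 (9 arrays), Kmt2a probe 2 (6 arrays), Cxxc1 probe 3 (16 arrays) and Ash2l probe 2 (15 arrays). The 4 that did not pass were Kmt2c probe 5 and Kmt2e probe 2 on 0 arrays, Ash2l probe 3 on 1 array and Cxxc1 probe 4 on 2 arrays. All 10 genes thus had at least 1 probe that passed, and 9 of them at least 1 detected throughout.

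Kmt2a, known in mouse for keeping Hox genes active, was the exception. Its 2 probes passed the filter through few groups: probe 1 (ILMN_1218169) was detected on the 9 arrays of Zfy2_Eif2s3y, Zfy1_hi and Zfy2, and probe 2 (ILMN_1222137) on the 6 arrays of Zfy2_Eif2s3y and Zfy2 alone. A probe that passes through its high groups only had to differ between the groups. The 250 bases before the annotated Kmt2a start are shown because this is the member whose signal followed the Zfy2 genotype, and those of Kmt2c because they were the richest in CG among the 5 members with a listed promoter. Both are from RefSeq, build GRCm38.p6, read 5′ to 3′ on the gene's strand, with each CG dinucleotide in capitals. Kmt2a lies at chr9:44881290-44881539 and Kmt2c at chr5:25498784-25499033, both on the minus strand.
Kmt2a: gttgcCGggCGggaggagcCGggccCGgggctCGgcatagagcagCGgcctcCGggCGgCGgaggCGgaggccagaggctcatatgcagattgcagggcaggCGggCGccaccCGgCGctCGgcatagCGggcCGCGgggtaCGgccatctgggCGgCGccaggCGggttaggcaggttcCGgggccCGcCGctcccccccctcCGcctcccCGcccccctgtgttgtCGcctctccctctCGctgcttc
Kmt2c: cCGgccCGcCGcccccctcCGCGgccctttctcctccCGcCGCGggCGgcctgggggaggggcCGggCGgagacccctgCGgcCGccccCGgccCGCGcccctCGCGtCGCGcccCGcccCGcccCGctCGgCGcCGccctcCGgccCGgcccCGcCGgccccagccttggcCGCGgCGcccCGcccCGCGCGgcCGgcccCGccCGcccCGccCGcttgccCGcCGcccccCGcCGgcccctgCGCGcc

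The Kmt2a window held 29 CG and was 76.8% G or C, and 93.2% of the 32851 windows of this length in the RefSeq table held fewer CG. Kmt2c held 48 CG, more than 99.8% of windows. Kmt2d held 26, Setd1a 25 and Wdr5 12, against a median of 6 over all windows. CG content bears on this family because the CXXC domain of Kmt2a, Kmt2b and Cxxc1 binds unmethylated CG. The letters AGGCCT, the core reported for the binding motif of human ZFX and ZFY and its own reverse complement, were searched for and occurred in 0 of the 5 windows and in 8.7% of all windows.

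In Kmt2a probe 1, the XX arrays read 4.76, 4.76 and 4.61, the Zfy2_nf arrays 4.70, 4.72 and 4.66, and the Zfy1_lo arrays 4.55, 4.63 and 4.72. None of these 9 arrays detected it, and the 3 groups overlapped. The Zfy2_Eif2s3y arrays read 6.10, 6.09 and 5.78, and the Zfy2 arrays of the other batch 6.17, 6.05 and 6.03. These 6 arrays lay above the other 12 in the series. The Zfy1_hi arrays read 4.98, 5.15 and 5.04, below every array with functional Zfy2 and above every XX, Zfy2_nf and Zfy1_lo array. From high to low the group means were 6.08 ± 0.07 in Zfy2, 5.99 ± 0.18 in Zfy2_Eif2s3y, 5.06 ± 0.09 in Zfy1_hi, 4.71 ± 0.09 in XX, 4.69 ± 0.03 in Zfy2_nf and 4.64 ± 0.08 in Zfy1_lo (SD, n = 3). The first and second of these overlapped, and so did the last 3.

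Kmt2a probe 2 gave the same split of the arrays with Zfy2 from the rest. It read 5.19, 5.39 and 5.24 in Zfy2_Eif2s3y and 5.70, 5.71 and 5.28 in Zfy2. It read 4.44, 4.38 and 4.48 in XX, 4.52, 4.54 and 4.77 in Zfy2_nf, 4.37, 4.41 and 4.64 in Zfy1_lo and 4.35, 4.36 and 4.24 in Zfy1_hi, detected on none of these 12 arrays. In the non-normalized signal, probe 1 showed the split within each batch. That signal was 134, 135 and 130 in Zfy2_Eif2s3y against 98.3, 118 and 101 in XX, and 107, 115 and 125 in Zfy2 against 79.4, 82.3 and 85.4 in Zfy1_hi. For probe 2 the non-normalized signal showed the split in batch 2, at 91.6, 101 and 92.3 in Zfy2 against 57.4, 58.3 and 54.1 in Zfy1_hi. In batch 1 it overlapped, with 103, 110 and 112 in Zfy2_Eif2s3y against 99.6, 104 and 93.9 in Zfy2_nf.

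**Figure D1:**
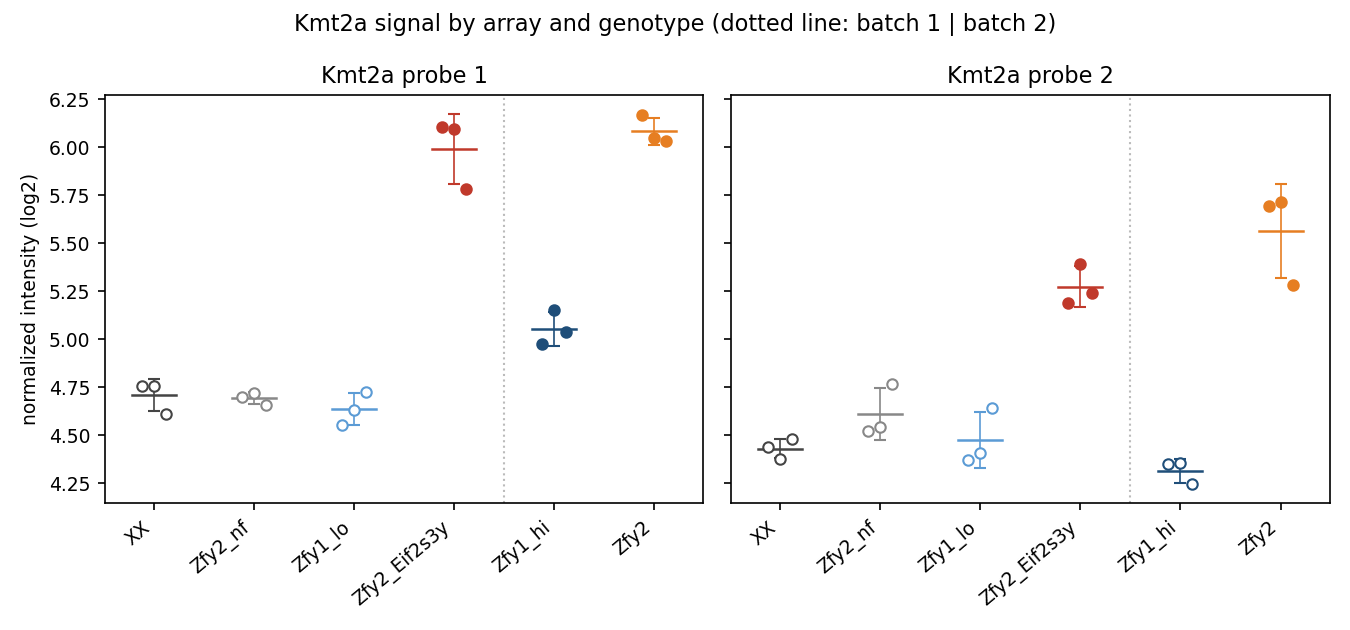
Normalized log2 intensity of both Kmt2a probes on each of the 18 arrays (y axis) by genotype (x axis), where filled points are arrays with a detection p-value under 0.05, open points arrays without, horizontal lines group means and bars SD (n = 3). In both panels the 6 arrays of Zfy2_Eif2s3y and Zfy2 lie above the other 12, and Zfy1_hi is detected with probe 1 only.

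Within batch 1, Kmt2a probe 1 lay 1.29 (log2, SE 0.0987) above the mean of XX and Zfy2_nf in Zfy2_Eif2s3y, which is 2.45-fold. Since the lower arrays did not detect it, the fold is also given as a bound, the mean of the high arrays over the lowest signal that counted as detected on each low array. By that measure probe 1 was at least 2.21-fold higher, and probe 2, which lay 0.75 (SE 0.115) higher, was at least 1.34-fold higher. These bounds take the normalized values as they are and leave out their spread. All 3 Zfy2_Eif2s3y arrays were on slide 2, and among the arrays of that slide alone the differences were 1.28 and 0.67. A proportion of the Zfy2_Eif2s3y cells also carried Eif2s3y, so Zfy2 and Eif2s3y cannot be told apart in batch 1. Within batch 2, Zfy2 lay above Zfy1_hi by 1.03 (SE 0.114, 2.04-fold) in probe 1 and by 1.25 (SE 0.133, at least 1.66-fold) in probe 2. Zfy2 filled positions 1 to 3 of its slide and Zfy1_hi positions 4 to 6, so position and genotype cannot be told apart there. Across batches Zfy2 lay at least 2.33-fold above XX in probe 1 and at least 1.63-fold in probe 2. In pooled cells, fewer cells of a type and less RNA per cell cannot be told apart.

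The sizes of the Kmt2a differences rested on the background correction. Without it, Zfy2_Eif2s3y lay 0.53 above the mean of XX and Zfy2_nf in probe 1 and 0.33 above it in probe 2. Zfy2 lay 0.44 and 0.63 above Zfy1_hi, which carries Zfy1 copies and is not a control without a transgene. In the authors' processed intensities on a log2 scale the differences were 0.55 and 0.45 for probe 1 and 0.32 and 0.58 for probe 2. The direction was the same throughout. Of the 6 granulosa and cumulus markers with a kept probe, the steroidogenic enzyme gene Cyp11a1 was called in both comparisons. It fell by 1.63 in Zfy2_Eif2s3y (adjusted p = 0.000134) and by 1.68 in Zfy2 against Zfy1_hi (adjusted p = 0.000603). The other 5 were not called in either and lay on the positive side in Zfy2_Eif2s3y, and the list medians were 0.24 and 0.07. Of the 10 oocyte markers, 2 fell in Zfy2_Eif2s3y and 1 in Zfy2 against Zfy1_hi, with Kit, the receptor for Kit ligand, among them in both (-0.55 and -0.75). Over all kept probes, 9.14% and 5.66% were called in these comparisons. The part of these cell type markers in the Kmt2a values was not tested.

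Kmt2a was tested in the 3 comparisons without a functional Zfy2 transgene and was not called in any. Zfy2_nf differed from XX by -0.02 in probe 1 (95% interval -0.26 to 0.22, adjusted p = 0.985) and by 0.18 in probe 2 (adjusted p = 0.747). Zfy1_lo differed from XX by -0.07 (interval -0.31 to 0.17, adjusted p = 0.932) and by 0.04 (adjusted p = 0.968). Neither probe was detected on any XX, Zfy2_nf or Zfy1_lo array, so these tests compared signals at background level. Their intervals set no limit on a change in Kmt2a RNA below detection. Zfy1_hi lay 0.35 above XX in probe 1 (SE 0.114, 95% interval 0.10 to 0.59, adjusted p = 0.0638), and 0.14 above it without background correction. In probe 2 it lay 0.12 below XX (log2 change -0.12, adjusted p = 0.639). With no filter on detection the probe 1 difference was called (adjusted p = 0.0309). Probe 1 was detected in Zfy1_hi and the groups with functional Zfy2 only, and on no XX array. Neither of its p-values is therefore separate support for a rise. Zfy1_hi and XX lay in different batches, and genotype and batch cannot be told apart between them. On the non-normalized scale Zfy1_hi read lower than XX in probe 1, on slides whose median signal was also lower.

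The 5 genes whose pattern over the 6 group means was closest to Kmt2a probe 1 were Rab11fip5, S100a14, Lrrc41, Isl2 and Cdkn2c. Likeness was the root mean square difference of the centred means, which ran from 0.08 for Rab11fip5 to 0.11 for Cdkn2c. Rab11fip5 had means of 7.97 in XX, 7.91 in Zfy2_nf, 7.80 in Zfy1_lo, 9.04 in Zfy2_Eif2s3y, 8.21 in Zfy1_hi and 9.37 in Zfy2. Isl2, a LIM homeobox gene, had 7.17, 7.10, 7.11, 8.42, 7.29 and 8.33 in the same order of groups. In each of the 5 the groups with functional Zfy2 had the highest means and Zfy1_hi came next. That order followed from choosing them for likeness to Kmt2a probe 1 and is not a separate result. The second Kmt2a probe was less like the first than these, at 0.26, and 163 other kept probes were closer.

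No probe of the other enzymes was called within a batch. Leaving Kmt2a aside, 16 member probes were tested in the 2 comparisons within a batch that involve functional Zfy2. In Zfy2_Eif2s3y against the mean of XX and Zfy2_nf, 1 of the 16 was called, against 9.14% of all kept probes (2188 of 23951), and their median was -0.15 against -0.01 over all probes. In Zfy2 against Zfy1_hi, 0 of the 16 were called by limma, against 5.66% of all probes (1355 of 23951), with 2 at an unadjusted p under 0.05 and a median of -0.08 against 0.00. Member differences ran from -0.66 to 0.31 in the first comparison and from -0.75 to 0.61 in the second.

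**Figure D2:**
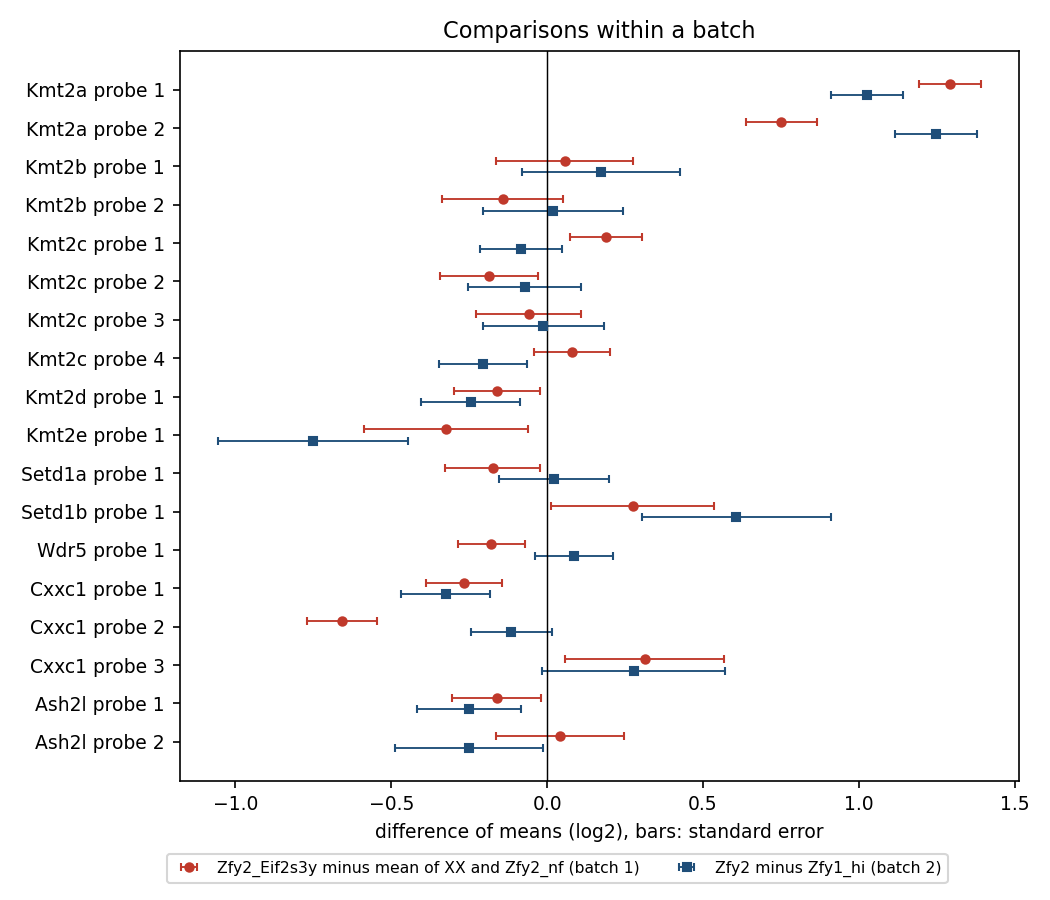
Difference of group means in log2 intensity (x axis) for each of the 18 member probes that passed the filter (y axis), with bars of 1 standard error, for Zfy2_Eif2s3y minus the mean of XX and Zfy2_nf (circles) and Zfy2 minus Zfy1_hi (squares). Both Kmt2a probes lie between 0.75 and 1.29, and the other 16 probes between -0.75 and 0.61, with Cxxc1 probe 2 at -0.66 the only 1 of these 16 that was called.

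Kmt2b, the closest relative of Kmt2a and the enzyme of broad trimethylation in the mouse oocyte, was detected on every array with both probes. Probe 1 differed by 0.06 in Zfy2_Eif2s3y (95% interval -0.41 to 0.52) and probe 2 by -0.14 (interval -0.55 to 0.27). In Zfy2 against Zfy1_hi the differences were 0.17 (interval -0.36 to 0.71) and 0.02 (interval -0.46 to 0.49). None was called, and these intervals leave room for changes of the size seen in other probes.

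Kmt2c and Kmt2d, enzymes of enhancer monomethylation, were also not called within a batch. The 4 Kmt2c probes differed by -0.19 to 0.19 in Zfy2_Eif2s3y and by -0.21 to -0.01 in Zfy2 against Zfy1_hi. Kmt2d read 10.89, 10.95 and 11.02 in XX and 10.70, 10.74 and 10.76 in Zfy2_Eif2s3y. Its Zfy2 arrays read 10.30, 10.66 and 10.93 and overlapped Zfy1_hi at 11.02, 10.68 and 10.92. Its differences were -0.16 (adjusted p = 0.521) and -0.24 (adjusted p = 0.456).

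Kmt2e, which carries a SET domain but is known mainly as a reader of H3K4 methylation, had the most negative difference of the members in batch 2. Its probe 1 read 6.36, 5.10 and 5.73 in Zfy2 and 6.21, 6.74 and 6.50 in Zfy1_hi, a difference of -0.75 (SE 0.305, adjusted p = 0.183) with groups that overlapped. In Zfy2_Eif2s3y it differed by -0.32 (adjusted p = 0.499). Replicates of Kmt2e spread widely, with an SD of 0.63 in Zfy2 and 0.55 in XX.

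Setd1a and Setd1b encode the catalytic subunits of the complexes that hold Cxxc1. Setd1b read 8.24, 9.16 and 9.13 in Zfy2 and 8.31, 8.17 and 8.23 in Zfy1_hi, so that 2 of the Zfy2 arrays stood above Zfy1_hi and 1 within it (0.61, SE 0.303, adjusted p = 0.302). Its difference in Zfy2_Eif2s3y was 0.27 (adjusted p = 0.574), and on slide 2 alone it was -0.30. Setd1a differed by -0.17 (adjusted p = 0.534) and by 0.02 (95% interval -0.35 to 0.39).

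**Figure D3:**
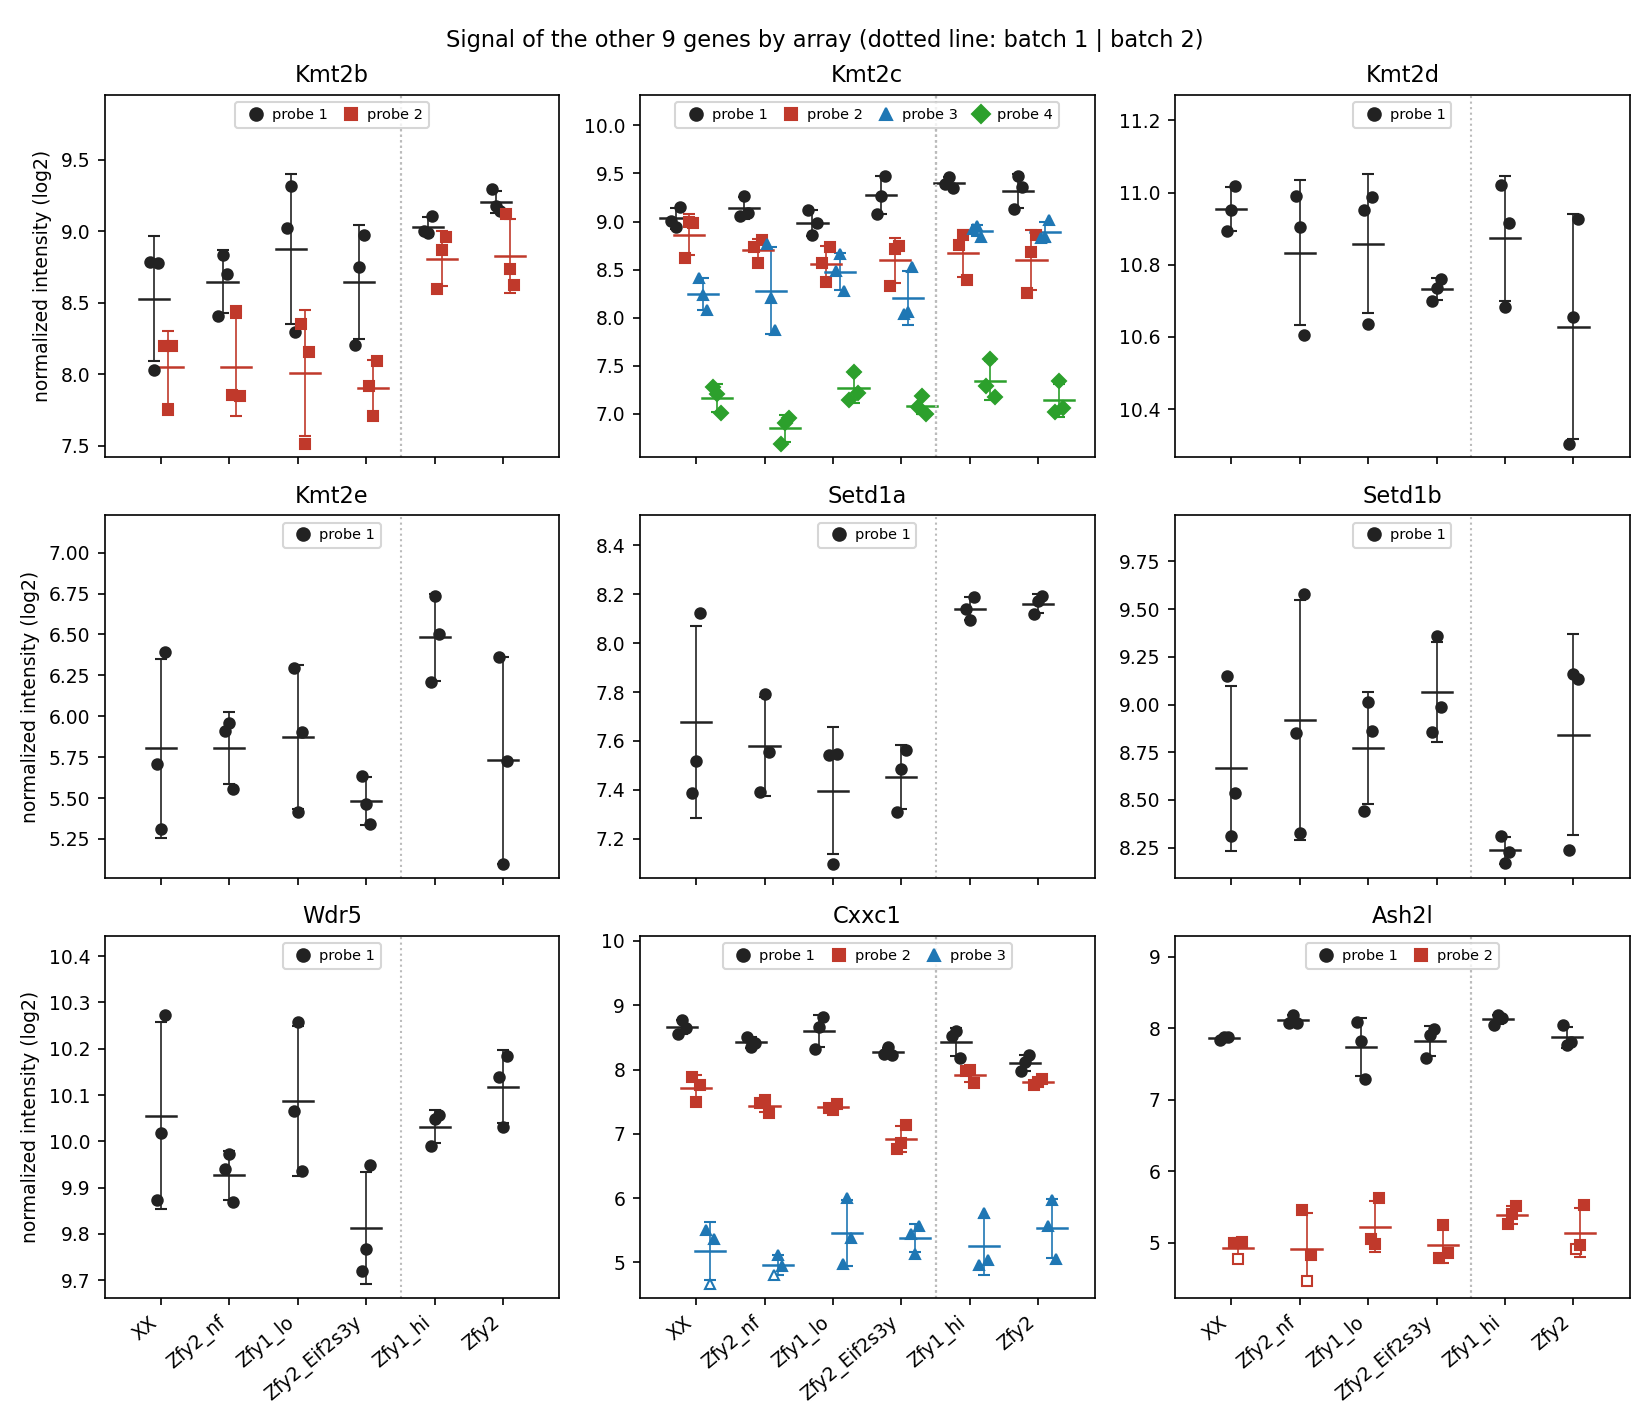
Normalized log2 intensity on each array (y axis, a separate scale per panel) by genotype (x axis) for the probes of the 9 other genes that passed the filter, where symbols mark probes of a gene, filled points arrays with a detection p-value under 0.05, horizontal lines group means and bars SD (n = 3). Cxxc1 probe 2 is lowest in Zfy2_Eif2s3y, and probe 2 of Kmt2b and probe 3 of Kmt2c are higher on the 6 arrays to the right of the dotted line than on the 12 to the left.

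Cxxc1, the CG-binding subunit that directs the Setd1 enzymes to promoters, gave the only member call within a batch. Its probe 2 (ILMN_2898135) read 7.89, 7.49 and 7.76 in XX, 7.47, 7.52 and 7.33 in Zfy2_nf and 7.40, 7.37 and 7.47 in Zfy1_lo. In Zfy2_Eif2s3y it read 6.76, 6.85 and 7.14, below all of these arrays. It fell by 0.66 on the log2 scale against the mean of XX and Zfy2_nf (SE 0.112, 1.58-fold, adjusted p = 0.00147). On slide 2 alone, with 1 array each of XX and Zfy2_nf, the difference was -0.69 and was not called (adjusted p = 0.126). The oocyte genes Figla and Kit also fell in this comparison, by 0.68 and 0.55, and the part of cell type markers in the Cxxc1 value was not tested.

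Cxxc1 probe 2 was not called in Zfy2 against Zfy1_hi. The Zfy2 arrays read 7.76, 7.81 and 7.85 and the Zfy1_hi arrays 7.97, 8.00 and 7.79, a difference of -0.11 (95% interval -0.39 to 0.16, adjusted p = 0.719). The 2 comparisons share no array, and the limma test of the difference between them gave -0.54 (SE 0.171, 95% interval -0.91 to -0.18). Its p was 0.00579 before and 0.509 after adjustment over all kept probes. By the adjusted threshold used here the 2 comparisons were not shown to differ. Zfy2 and Eif2s3y cannot be told apart in the Zfy2_Eif2s3y value. The gene's other probes were not called in either comparison. Probe 1 differed by -0.27 in Zfy2_Eif2s3y (adjusted p = 0.199) and by -0.33 in Zfy2 (adjusted p = 0.226), and probe 3 by 0.31 (adjusted p = 0.497) and 0.28 (adjusted p = 0.696). The positions of the probes in the transcript were not used here.

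Wdr5 and Ash2l, subunits of the shared core, were not called in any of the 6 comparisons. Group means of Wdr5 lay between 9.81 ± 0.12 in Zfy2_Eif2s3y and 10.12 ± 0.08 in Zfy2 (SD, n = 3), and its differences were -0.18 (95% interval -0.41 to 0.05) and 0.09 (interval -0.18 to 0.35). Ash2l probe 1 had group means from 7.74 ± 0.40 in Zfy1_lo to 8.12 ± 0.07 in Zfy1_hi. Its Zfy2 arrays, at 8.04, 7.77 and 7.81, lay just below those of Zfy1_hi, at 8.05, 8.18 and 8.14, and the difference of -0.25 did not pass the test (adjusted p = 0.467).

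The control transgene and the single-copy Zfy1 transgene gave no call among the 18 member probes. Against XX, 0 of 18 were called by limma in Zfy2_nf, where 0.0292% of all kept probes were (7 of 23951), and 0 of 18 in Zfy1_lo, where 0.00418% were (1 of 23951). At an unadjusted p under 0.05 there was 1 member probe in each. Member differences ran from -0.31 to 0.25 in Zfy2_nf and from -0.30 to 0.35 in Zfy1_lo, with medians of -0.01 in both, and the lowest adjusted p of a member was 0.539 and 0.651.

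Against XX, the batch 2 genotypes gave further calls. In Zfy2, 3 of 16 member probes were called, 2 higher and 1 lower, against 22.4% of all kept probes (5366 of 23951), and in Zfy1_hi 2 of 18, both higher, against 10.4% (2482 of 23951). Member medians were 0.14 and 0.23 against 0.00 and 0.01 over all probes. Both shares are near those of the array as a whole, and both comparisons use the same 3 XX arrays in the other batch.

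**Figure D4:**
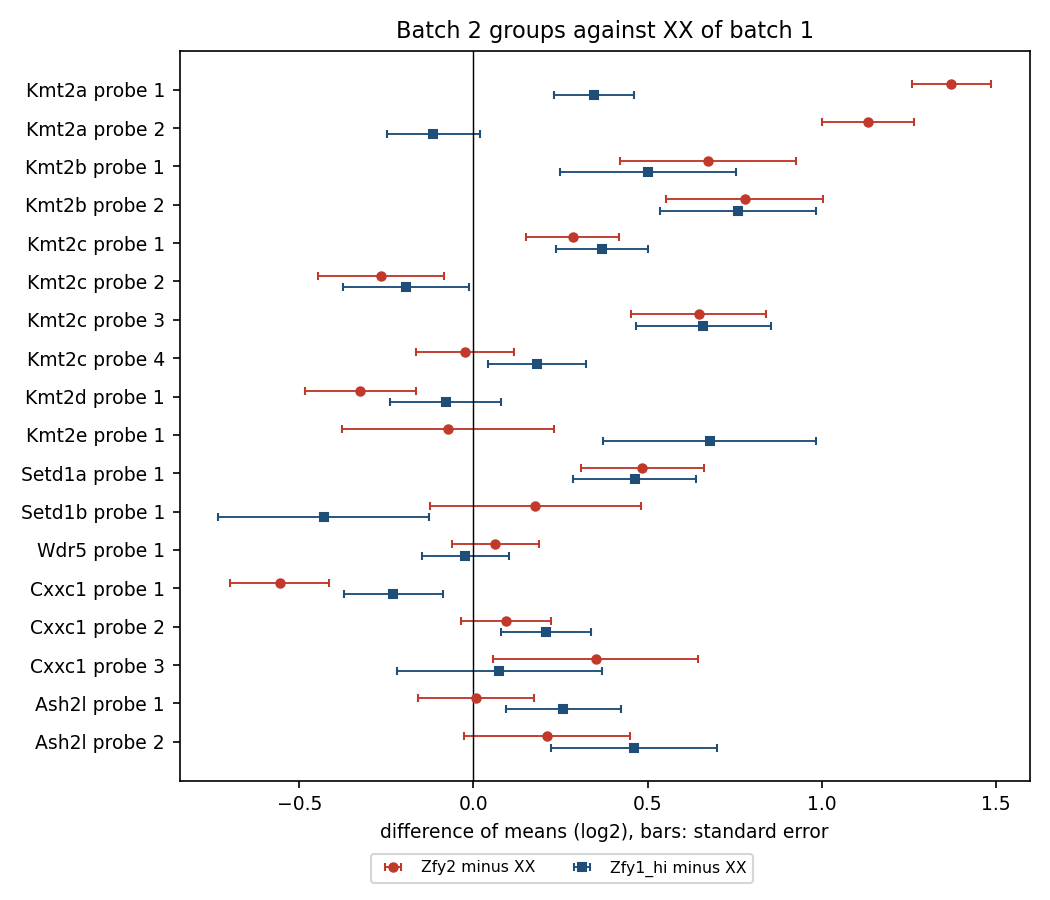
Difference of group means in log2 intensity (x axis) for each of the 18 member probes (y axis), with bars of 1 standard error, for Zfy2 minus XX (circles) and Zfy1_hi minus XX (squares), which share the XX arrays and span both batches. Kmt2b probe 2 lies at 0.78 and 0.76 and Kmt2c probe 3 at 0.65 and 0.66, while Kmt2a probe 1 lies at 1.37 and 0.35.

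The probes called higher were Kmt2b probe 2 and Kmt2c probe 3, in both genotypes. Kmt2b probe 2 read 8.19, 7.75 and 8.20 in XX, 9.12, 8.74 and 8.62 in Zfy2 and 8.59, 8.87 and 8.96 in Zfy1_hi. It rose by 0.78 in Zfy2 (SE 0.225, adjusted p = 0.0205) and by 0.76 in Zfy1_hi (SE 0.225, adjusted p = 0.0407). Kmt2c probe 3 read 8.41, 8.24 and 8.08 in XX, 8.82, 8.84 and 9.01 in Zfy2 and 8.92, 8.95 and 8.84 in Zfy1_hi. It rose by 0.65 (SE 0.194, adjusted p = 0.0248) and by 0.66 (SE 0.194, adjusted p = 0.0396). The calls were near the threshold. The Zfy2 call of Kmt2b probe 2 was lost without XX replicate 2 (adjusted p = 0.0930) or Zfy2 replicate 1 (adjusted p = 0.0914), and that of Kmt2c probe 3 without XX replicate 2, XX replicate 3, Zfy2 replicate 2 or Zfy2 replicate 3 (adjusted p = 0.0523 to 0.0826). Both Zfy1_hi calls were lost without any 1 of the 6 arrays compared (adjusted p = 0.0523 to 0.157).

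These 2 probes separated the batches. Kmt2b probe 2 lay between 8.59 and 9.12 on the 6 arrays of batch 2 and between 7.51 and 8.44 on the 12 arrays of batch 1, and Kmt2c probe 3 between 8.82 and 9.01 against 7.87 and 8.77. They were the 2 of 18 member probes whose batches did not overlap, as for 1337 of all 23951 kept probes. Other probes of the same genes were not called. Kmt2b probe 1 differed from XX by 0.67 in Zfy2 (adjusted p = 0.0663) and 0.50 in Zfy1_hi (adjusted p = 0.224). Kmt2c probe 1 differed by 0.28 and 0.37, probe 2 by -0.27 and -0.19, and probe 4 by -0.02 and 0.18. Setd1a lay between 8.09 and 8.19 in batch 2, and in XX at 7.39, 7.52 and 8.12, with differences of 0.48 (adjusted p = 0.0593) and 0.46 (adjusted p = 0.105). Without XX replicate 3, the highest of these XX arrays, Setd1a was called in both (0.71, adjusted p = 0.00667, and 0.69, adjusted p = 0.0160). Without any other 1 of the compared arrays it was not called, with an adjusted p of up to 0.222 and 0.329.

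Cxxc1 probe 1 was the member called lower in Zfy2 against XX. It read 8.56, 8.77 and 8.65 in XX and 7.98, 8.11 and 8.22 in Zfy2, with no overlap, and fell by 0.56 on the log2 scale (SE 0.142, adjusted p = 0.0108). It stayed called without any 1 of these 6 arrays, with an adjusted p of up to 0.0471. Its Zfy1_hi arrays of the same batch read 8.52, 8.59 and 8.18 and did not pass the test against XX (-0.23, adjusted p = 0.334). Probe 2 of the gene, which fell in Zfy2_Eif2s3y, differed by 0.09 in Zfy2 against XX (adjusted p = 0.646).

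Cell type markers also moved in the comparisons against XX. In Zfy2, where 22.4% of all kept probes were called, 3 of the 10 oocyte markers fell (Gdf9 by 0.83, Kit by 0.66 and Zp2 by 0.56). The other 7 were not called. Of the 6 granulosa and cumulus markers with a kept probe, Cyp11a1 fell by 1.64 (adjusted p = 0.000276) and Kitl by 0.69 (adjusted p = 0.0227). Lyz2, the macrophage lysozyme gene and the only blood and immune marker with a kept probe, rose by 0.51 (adjusted p = 0.0326). In Zfy1_hi, where 10.4% of all kept probes were called, Gdf9 fell by 0.91, Zp2 by 0.69 and Kitl by 0.76. No other marker of these lists was called there. No stroma or theca marker was called by limma in either comparison or had an unadjusted p under 0.05. The part of these cell type markers in the member values was not tested.

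Further subunits of the same complexes were read from a list of 13 genes, of which 11 had a kept probe. None was called by limma in the 4 comparisons within a batch, with 2 at an unadjusted p under 0.05 in Zfy2_nf and 1 in each of the others. The medians were 0.03 in Zfy2_nf, -0.01 in Zfy1_lo, 0.07 in Zfy2_Eif2s3y and 0.04 in Zfy2 against Zfy1_hi, against -0.01 to 0.00 over all probes. The core subunit Rbbp5 differed by 0.25 in Zfy2_Eif2s3y (adjusted p = 0.251) and the core subunit Dpy30 by -0.14 (adjusted p = 0.462). Against XX in the other batch, 3 rose and 1 fell in Zfy2, where 22.4% of all kept probes were called, and 1 rose and 1 fell in Zfy1_hi, where 10.4% were. Men1, which encodes the menin that binds Kmt2a and Kmt2b, rose by 0.75 in Zfy2 (adjusted p = 0.00912) and by 0.61 in Zfy1_hi (adjusted p = 0.0480). Bod1l, whose product partners SETD1A in human cells, fell by 0.65 and 0.69, and Wdr82 and Kdm6a rose in Zfy2 by 0.46 and 0.38. Within batch 1, Bod1l also differed from XX by -0.57 in Zfy2_nf, without passing the test (adjusted p = 0.218), and by -0.04 in Zfy1_lo.

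Of 6 known Kmt2a targets, the genes Hoxa7 and Hoxa9 had a kept probe, and neither was called by limma in any comparison, with Hoxa7 at an unadjusted p under 0.05 in Zfy2 against Zfy1_hi and against XX. Hoxa7 differed by -0.10 in Zfy2_Eif2s3y (adjusted p = 0.673) and by 0.48 in Zfy2 against Zfy1_hi (SE 0.139, adjusted p = 0.0548). Hoxa9 differed by 0.15 and 0.37, with adjusted p-values of 0.635 and 0.333.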

How the data were processed

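Per the file headers, the authors' table without normalization holds a bead intensity and a detection p-value for each of 45281 probes on each array. GenomeStudio was named per the submitters' processing notes, with settings not given in the sources used here. The deposited series matrix gave a processed intensity on a linear scale, used as an alternative only, and how the authors normalized it is not stated there. The platform annotation gave 1 gene symbol to 34885 probes, several to 18 and none to 10378.

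Intensities were background corrected with neqc of limma 3.58.1 in R 4.3.3, using the detection p-values, an offset of 16 and quantile normalization over 18 arrays. A probe was kept if detected (p under 0.05) on at least 3 arrays, which left 23951. One limma model of 6 group means covered all arrays, with 12 degrees of freedom left for the spread. It was also run on simulated data with independent noise. That simulation held no batch, slide or position effect and so does not bear on them. P-values are two-sided and adjusted by Benjamini-Hochberg over all kept probes of a comparison, called under 0.05. For the other gene lists, a gene's level was its kept probe with the highest mean. Named genes were the 10 members, the 5 nearest patterns to Kmt2a probe 1, and called genes of the lists. Members, lists and markers were chosen with earlier results of these data known, and Rbbp5, Dpy30, Hoxa7, Hoxa9 and Kdm5b were named after their values were seen. The number of arrays limits the precision. Same-numbered replicates of different groups were not paired (r -0.15 to 0.19).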

Additional observations from a re-analysis of the deposited data

How the results depend on the processing

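Kmt2a lay higher in Zfy2_Eif2s3y and in Zfy2 than in their comparison groups under every alternative run. Against the mean of XX and Zfy2_nf in Zfy2_Eif2s3y, probes 1 and 2 lay 0.55 and 0.32 higher in the authors' processed intensities and 0.53 and 0.33 without background correction. Leaving out 1 array gave 1.24 to 1.40 and 0.69 to 0.79. In Zfy2 against Zfy1_hi they lay 0.45 and 0.58 higher in the authors' intensities and 0.44 and 0.63 without background correction, and leaving out 1 array gave 0.98 to 1.07 and 1.17 to 1.39. The cause was not tested beyond the setting itself. The Cxxc1 call in Zfy2_Eif2s3y went to 0 calls within slide 2, with fewer arrays, and with 1 probe per gene, which tests another Cxxc1 probe, and stayed at 1 without any 1 array. Member calls in Zfy2 against XX were 5 in the authors' intensities, 5 without background correction (both adding Setd1a and Kmt2b probe 1), 1 with 1 probe per gene and 1 to 3 without 1 array. In Zfy1_hi against XX they were 3 in the authors' intensities and 3 without background correction (both adding Kmt2c probe 1), 1 with no filter, 0 with 1 probe per gene, and 0 to 1 without 1 array. The call with no filter was Kmt2a probe 1, and the call without XX replicate 3 was Setd1a. With no filter, Kmt2b probe 2 (adjusted p = 0.0601) and Kmt2c probe 3 (adjusted p = 0.0526) were no longer called. The replicate number as a block, which the labels do not give as a pairing, gave 0 member calls in Zfy1_hi against XX (Kmt2b probe 2, adjusted p = 0.0525, and Kmt2c probe 3, adjusted p = 0.0536) and left the other member counts as they were. Of the 18 arrays, 5 correlated best with their own number.

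Counts of all probes called also moved. In Zfy2_Eif2s3y they were 1111 with slide as a fixed block, 276 within slide 2, 1379 with 1 probe per gene, and 1173 to 2504 without 1 array, against 2188. In Zfy2 against Zfy1_hi they were 809 to 954 without 1 array, against 1355. In Zfy2 against XX they were 2828 with 1 probe per gene, against 5366. In Zfy1_hi against XX they were 1330 in a fit of the compared arrays alone, 1149 with 1 probe per gene and as few as 1456 without 1 array, against 2482. In Zfy2_nf they were 1 to 15 against 7, and in Zfy1_lo 0 to 7 against 1.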

Other observations

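H3K4 demethylases, which remove the mark, had 5 of 6 listed genes with a kept probe. Kdm1a rose by 0.67 in Zfy2_Eif2s3y (SE 0.110, adjusted p = 0.00118), as the 1 of 5 called there, against 9.14% of all kept probes. It differed by 0.39 in Zfy2 against Zfy1_hi without passing the test (adjusted p = 0.0844). Kdm5b differed by 0.00 in the first comparison and by -0.84 in the second (adjusted p = 0.0916). Kdm5a rose by 1.22 in Zfy2 against XX of the other batch (SE 0.390, adjusted p = 0.0340). It was the 1 of 5 called there, against 22.4% of all kept probes. Kdm5a also lay 0.97 above XX in Zfy1_hi (adjusted p = 0.126). Within a batch it lay 0.70 higher in Zfy2_Eif2s3y (adjusted p = 0.222) and 0.25 higher in Zfy2 than in Zfy1_hi (adjusted p = 0.814). None of these 3 was called. Of 7 further SET domain genes linked to H3K4, 5 had a kept probe, and Smyd1 alone was called in any of the 6 comparisons. It rose by 0.51 in Zfy2 against XX (adjusted p = 0.0382), where 22.4% of all kept probes were called, so 1 of 5 is near that share.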
